A study of Homo sapiens with 12 samples.

Results

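The 10 genes described here make or control polyamines, or build the hypusine residue of the translation factor eIF5A. They are ODC1, OAZ1, AMD1, SRM, SMS, SAT1, EIF5A, EIF5A2, DHPS and DOHH, found by matching the Ensembl gene identifiers to these symbols, and they are 10 of the 57500 genes listed. The genes were chosen by pathway from a list drawn up when changes of these same comparisons were already known. Their levels and fold changes are therefore given as descriptions with standard errors and intervals, and no p-value is given for any of them. The cells are OE33, an established line of esophageal adenocarcinoma, a gland-forming cancer linked to acid and bile reflux. The 4 groups have 3 libraries each, described in the study text as independent biological replicates. The shAPE1 group carries a short hairpin RNA against APE1, the APEX1 product, an enzyme that cuts DNA at abasic sites and also acts on transcription factors. The shCtrl group carries a control hairpin, and the rABS group has no vector. All 3 of these groups are survivors of 15 days with a daily exposure of 20 min to bile salts at 200 µM and pH 5.5. The Parental group is the untreated line. The labels name a single APE1 hairpin and no mock-exposed culture, so effects of exposure, selection of survivors and time in culture cannot be told apart between rABS and Parental. Effects of APE1 loss and of that one hairpin likewise cannot be told apart between shAPE1 and shCtrl.

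Polyamines are small positively charged molecules that bind nucleic acids and are needed for growth. Ornithine decarboxylase (ODC1) makes putrescine, and S-adenosylmethionine decarboxylase (AMD1) makes the aminopropyl donor that spermidine synthase (SRM) and spermine synthase (SMS) attach to make the longer polyamines. Antizyme (OAZ1) binds ODC1 and sends it to the proteasome, and spermidine/spermine acetyltransferase (SAT1) marks polyamines for export or oxidation. Spermidine also donates the group that deoxyhypusine synthase (DHPS) and then deoxyhypusine hydroxylase (DOHH) use to turn a single lysine of eIF5A into hypusine. Hypusinated eIF5A helps ribosomes through hard-to-translate stretches such as runs of proline. EIF5A encodes the widely expressed form, and EIF5A2 a related form that is low in most adult tissues and raised in several cancers. Much of the control of ODC1, AMD1, OAZ1 and SAT1 takes place during translation and protein turnover, which messenger RNA counts do not measure.

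The libraries held between 15736087 and 23010377 counts, and tests covered 15805 genes. Levels are CPM, counts scaled to a common library size. APEX1 averaged 4.93 ± 0.819 CPM in shAPE1, 59.8 ± 2.92 in shCtrl, 82.1 ± 2.28 in rABS and 54.7 ± 1.99 in Parental (SD, n = 3 each), lowest in the libraries labelled with its hairpin. All 7 epithelial markers were measured, with summed levels of 12430 to 13070 CPM in shAPE1, 14360 to 15820 in shCtrl, 14480 to 17090 in rABS and 15010 to 18330 in Parental. The other marker lists stayed at or under 27.1 CPM: 6 fibroblast markers summed to 3.53 to 27.1 CPM, nearly all of it COL1A1 with LUM at 0, and 6 leukocyte markers to 7.04 to 26.6 CPM with MS4A1 at 0. The 4 endothelial markers summed to 0.826 CPM or less. Most leukocyte marker counts came from CD79A (50 to 307 per library), CD14 (47 to 124) and CD68 (19 to 43). PTPRC had 0 to 4 counts per library and CD3E 0 to 1. The fibroblast sum was highest in Parental and the leukocyte sum highest in rABS, and the part of these markers in the results was not tested.

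All 10 genes passed the filter on low counts. Compared per kilobase of merged exons, EIF5A was the most abundant in every group, at 237 CPM per kb in shAPE1, 228 in shCtrl, 294 in rABS and 171 in Parental. SAT1, SMS and OAZ1 followed with group means between 67.3 and 214 CPM per kb. SRM and ODC1 lay between 15.0 and 63.4, AMD1 and DHPS between 7.36 and 15.9, and DOHH and EIF5A2 between 0.980 and 5.78 CPM per kb. The order of neighbours was not fixed. In rABS, for example, SMS (86.6 CPM per kb), SAT1 (84.1) and OAZ1 (80.5) differed by less than the spread of OAZ1 between libraries, whereas in shAPE1 SAT1 stood at 214 against 106 for SMS.

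Some counts may be shared with other genes, as the sources used here give neither the strand setting nor the handling of multi-mapped reads. EIF5A overlaps GPS2 on the opposite strand over 8.56% of its exon bases, DHPS overlaps WDR83 over 3.86% and OAZ1 overlaps JSRP1 over 6.87%. On its own strand, DHPS shares 38.5% of its exon bases with ENSG00000285589, which is not among the genes listed in the deposited counts. OAZ1 shares 6.40% of its exon bases on its own strand with ENSG00000273734, which is listed and had 0 counts in every library. GPS2 had 61 to 176 counts per library, WDR83 15 to 41 and JSRP1 3 to 19. Of the near-identical copies, EIF5AL1 came highest with 9 to 32 counts per library, 0.176% of the EIF5A counts.

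**Figure D1:**
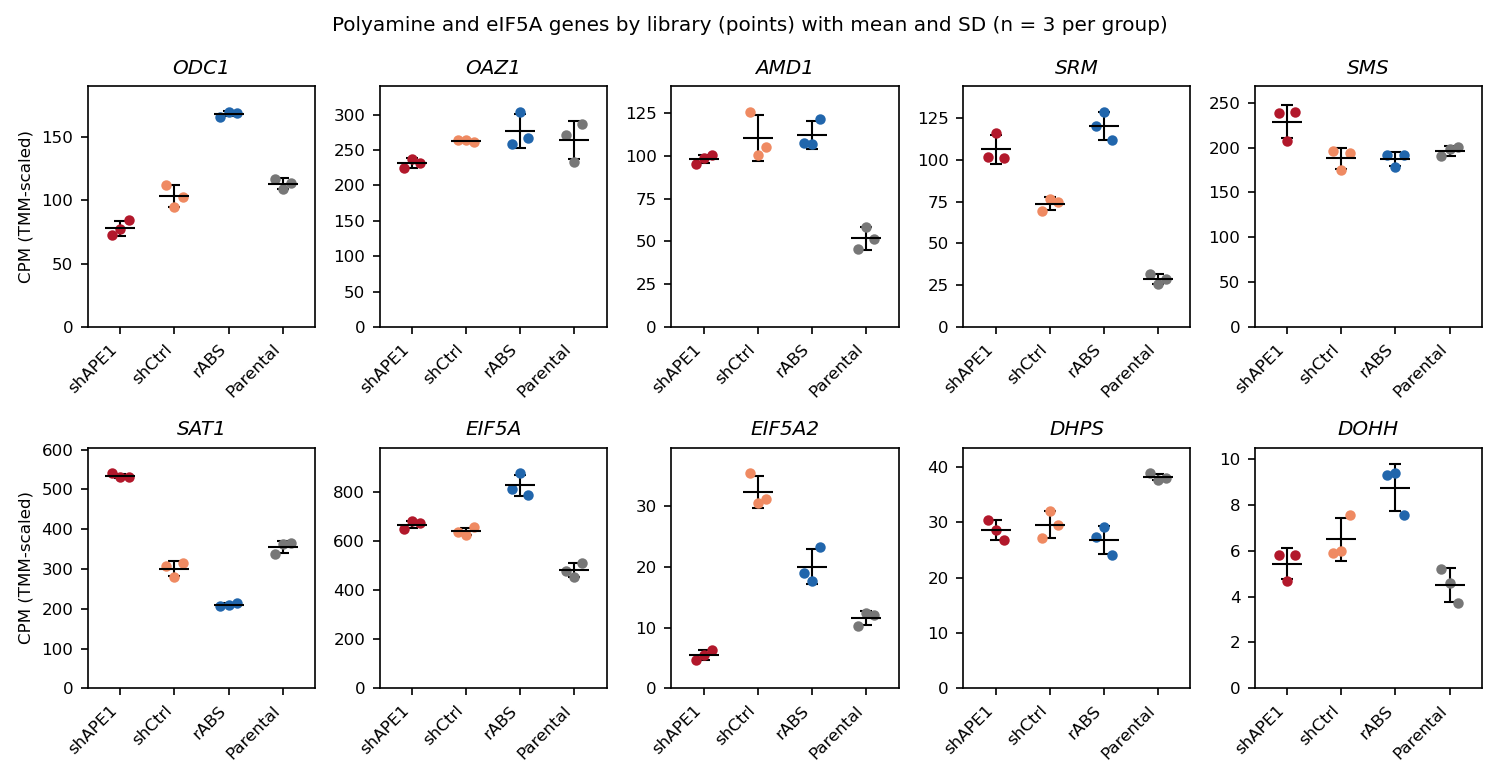
CPM of each gene in every library. Points are libraries and black lines give the mean and SD of 3 libraries in shAPE1, shCtrl, rABS and Parental; each axis starts at 0. EIF5A2 is lowest in shAPE1 and highest in shCtrl, SRM and AMD1 are lowest in Parental, and SAT1 is highest in shAPE1.

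In rABS survivors set against Parental cells, most of the synthesis route was higher and the acetyltransferase SAT1 lower. A gene was called higher or lower where edgeR's quasi-likelihood test gave a Benjamini-Hochberg adjusted p under 0.05 over all genes tested. Of the 10 genes, 6 were called higher (SRM, AMD1, DOHH, EIF5A2, EIF5A and ODC1) and 2 lower (SAT1 and DHPS), where 29.9% of all genes tested were called higher and 29.9% lower. The median log2 fold change of the 10 was 0.68, against -0.01 over all genes. With the APE1 hairpin, EIF5A2 stood apart in size from the other 9, and 3 of the 10 were called higher (SAT1, SRM and SMS) and 3 lower (EIF5A2, ODC1 and OAZ1). In that comparison 17.8% of all genes were called higher and 18.8% lower, and the medians were -0.11 for the 10 and -0.02 for all genes. Between shCtrl and rABS, which the labels set apart by the control vector, 2 were called higher (EIF5A2 and SAT1) and 4 lower (SRM, ODC1, DOHH and EIF5A). Effects of the vector, of its introduction and of any added time in culture cannot be told apart there. The shares over all genes were 17.9% higher and 18.6% lower, and the medians were -0.05 for the 10 and 0.02 for all genes. Because the list was drawn up with these contrasts known, nothing is read from the counts. The 3 comparisons also share libraries: rABS enters the first and the third, and shCtrl the second and the third. In bulk RNA a lower level in each cell and fewer cells with the RNA cannot be told apart.

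**Figure D2:**
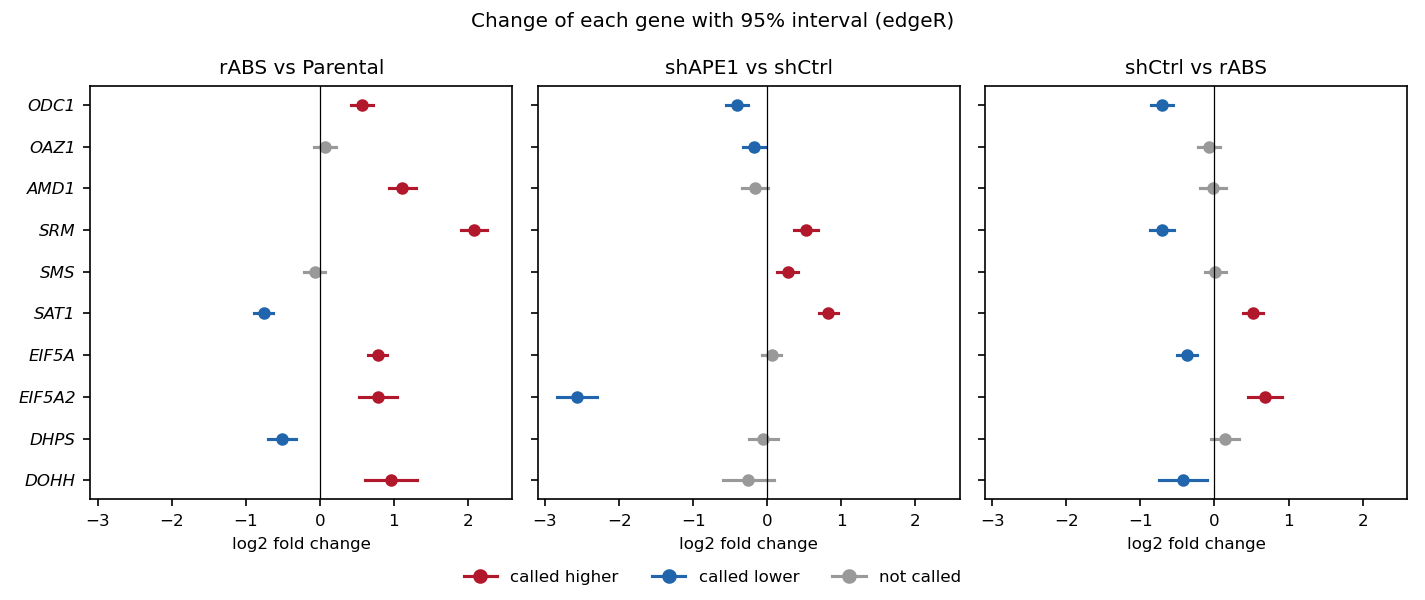
Log2 fold change (x axis) of each gene in the 3 comparisons, with its 95% interval from the edgeR fit (n = 3 libraries per group). Red marks genes called higher, blue genes called lower and grey genes not called. The farthest points are EIF5A2 at -2.57 between shAPE1 and shCtrl and SRM at 2.09 between rABS and Parental.

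ODC1 (chromosome 2, 10439968 to 10448504, minus strand, GRCh38), the first enzyme of the route, had 72.4, 77.35 and 84.4 CPM in shAPE1, 112, 94.99 and 103 in shCtrl, 166, 170.0 and 169 in rABS, and 117, 109 and 114 in Parental. The 3 rABS libraries were the highest and the 3 shAPE1 libraries the lowest, while the shCtrl and Parental ranges overlapped. ODC1 was 1.49-fold higher in rABS than in Parental (log2 0.57 ± 0.07, standard error, 95% interval 0.43 to 0.72). It was 1.32-fold lower in shAPE1 than in shCtrl (log2 -0.40 ± 0.07, interval -0.56 to -0.25) and 1.63-fold lower in shCtrl than in rABS (log2 -0.71 ± 0.07). Of the exposed groups, rABS was the one with all libraries above those of Parental.

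OAZ1, the antizyme that limits ODC1 protein, varied little. It averaged 231 ± 6.73 CPM in shAPE1, 263 ± 1.54 in shCtrl, 277 ± 23.9 in rABS and 264 ± 27.4 in Parental. Its range in shAPE1, 224 to 238 CPM, lay below that of shCtrl, 261 to 264, but overlapped that of Parental, 234 to 287. OAZ1 was 1.14-fold lower in shAPE1 than in shCtrl (log2 -0.18 ± 0.07, interval -0.33 to -0.04), a call close to the threshold that was lost without any one of the 6 libraries. The differences between rABS and Parental (log2 0.07, interval -0.08 to 0.22) and between shCtrl and rABS (log2 -0.07, interval -0.22 to 0.07) were not called.

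AMD1, the decarboxylase of S-adenosylmethionine (chromosome 6, 110874770 to 110895713, plus strand), separated the exposed groups from the untreated line. Its level was 95.3, 98.8 and 100.3 CPM in shAPE1, 126, 100.2 and 105 in shCtrl, 108, 107 and 121 in rABS, and 45.5, 58.5 and 51.1 in Parental. All 9 libraries of exposed cells were above all 3 Parental libraries, and the shCtrl range overlapped those of both shAPE1 and rABS, which did not overlap each other. AMD1 was 2.16-fold higher in rABS than in Parental (log2 1.11 ± 0.09, interval 0.93 to 1.29). The difference between shAPE1 and shCtrl was log2 -0.17 (interval -0.34 to 0.01) and that between shCtrl and rABS log2 -0.03 (interval -0.20 to 0.15), neither of them called.

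SRM, spermidine synthase (chromosome 1, 11054584 to 11060024, minus strand), had the largest rise of the 10 genes between rABS and Parental. It had 102, 116 and 101 CPM in shAPE1, 69.4, 76.7 and 75.0 in shCtrl, 120.3, 129 and 112 in rABS, and 31.5, 25.4 and 28.4 in Parental. The Parental libraries were the lowest and the shCtrl libraries came next, while the ranges of shAPE1 and rABS overlapped at the top. SRM was 4.25-fold higher in rABS than in Parental (log2 2.09 ± 0.09, interval 1.91 to 2.26). It was 1.44-fold higher in shAPE1 than in shCtrl (log2 0.53 ± 0.08) and 1.63-fold lower in shCtrl than in rABS (log2 -0.71 ± 0.08). Its direction in shAPE1 depends on the control used: against rABS without a vector SRM was at log2 -0.18, a difference that was not called.

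SMS, spermine synthase, stayed within a narrow band. It averaged 229 ± 18.4 CPM in shAPE1, 188 ± 11.8 in shCtrl, 187 ± 7.97 in rABS and 196 ± 5.39 in Parental. The shAPE1 libraries, from 208 to 239.9 CPM, lay above all others, and the other 3 groups overlapped. SMS was 1.22-fold higher in shAPE1 than in shCtrl (log2 0.28 ± 0.07, interval 0.14 to 0.42). The intervals of its difference between rABS and Parental (-0.21 to 0.07) and between shCtrl and rABS (-0.13 to 0.15, log2) included 0. The intervals of SRM and SMS, which act one after the other, did not overlap in the comparison of rABS with Parental.

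SAT1, the acetyltransferase that starts polyamine export and breakdown (chromosome X, 23783173 to 23786226, plus strand), ran opposite to the synthesis genes in rABS. Its level was 541, 531 and 532 CPM in shAPE1, 307, 281 and 316 in shCtrl, 207, 209 and 215 in rABS, and 338, 363 and 366 in Parental. No ranges overlapped, with the order shAPE1, Parental, shCtrl and rABS. SAT1 was 1.69-fold lower in rABS than in Parental (log2 -0.76 ± 0.07, interval -0.89 to -0.63). It was 1.77-fold higher in shAPE1 than in shCtrl (log2 0.83 ± 0.06, interval 0.70 to 0.96) and 1.43-fold higher in shCtrl than in rABS (log2 0.52 ± 0.06). SAT1 was the most raised of the 10 genes with the APE1 hairpin.

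EIF5A (chromosome 17, 7306999 to 7312463, plus strand) had 650.3, 681 and 674 CPM in shAPE1, 638, 628 and 656 in shCtrl, 814, 877 and 791 in rABS, and 480.4, 454 and 511 in Parental. The rABS libraries were the highest, the Parental libraries the lowest, and the 2 hairpin groups overlapped between them. EIF5A was 1.72-fold higher in rABS than in Parental (log2 0.78 ± 0.07, interval 0.65 to 0.91) and 1.29-fold lower in shCtrl than in rABS (log2 -0.37 ± 0.06). With the APE1 hairpin the difference from shCtrl was log2 0.06 (interval -0.07 to 0.19) and was not called. Against rABS without a vector, EIF5A in shAPE1 was lower (log2 -0.31).

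EIF5A2 (chromosome 3, 170888415 to 170908693, minus strand) was called lower with the APE1 hairpin, and its interval did not overlap that of its paralog EIF5A. It had 4.62, 5.57 and 6.25 CPM in shAPE1, resting on 92, 99 and 100 counts, and 35.4, 30.5 and 31.2 CPM in shCtrl, resting on 670, 718 and 626 counts. In rABS the level was 19.1, 17.7 and 23.3 CPM, and in Parental 10.31, 12.45 and 12.03 CPM. No ranges overlapped: shCtrl was highest, then rABS, then Parental, and shAPE1 was lowest. EIF5A2 was 5.93-fold lower in shAPE1 than in shCtrl (log2 -2.57 ± 0.13, interval -2.84 to -2.30), which left 16.9% of the shCtrl level and ranked 16th lowest among the 15805 genes tested. It was 1.72-fold higher in rABS than in Parental (log2 0.79 ± 0.12) and 1.61-fold higher in shCtrl than in rABS (log2 0.69 ± 0.11). Set against rABS, the value for shAPE1 was log2 -1.88, and the level in shAPE1 was also below that of the untreated line.

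**Figure D3:**
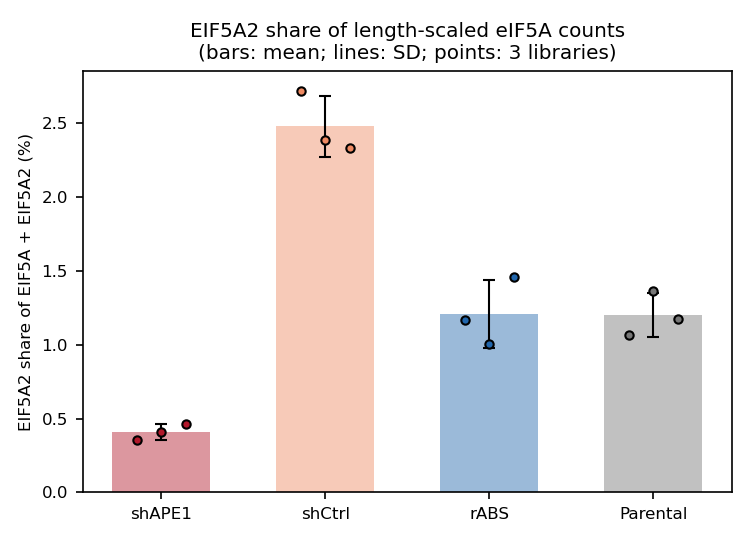
Share of EIF5A2 in the sum of EIF5A and EIF5A2, each scaled by exon length (y axis, percent, from 0). Bars are means, lines the SD and points the 3 libraries of shAPE1, shCtrl, rABS and Parental. The 3 shAPE1 libraries lie at or below 0.465% and the 3 shCtrl libraries at or above 2.33%.

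EIF5A2 was the minor form throughout. Per unit of exon length it made up 0.356%, 0.410% and 0.465% of the EIF5A and EIF5A2 counts in shAPE1, 2.71%, 2.38% and 2.33% in shCtrl, 1.16%, 1.01% and 1.46% in rABS, and 1.07%, 1.36% and 1.17% in Parental. The shares of rABS and Parental overlapped, since both genes stood 1.72-fold higher in rABS, while the shares of shAPE1 and shCtrl lay below and above them. Scaling by length matters for this share, because the merged exons of EIF5A2 span 5593 bases and those of EIF5A 2815. Without it the mean shares were 0.812% in shAPE1, 4.81% in shCtrl, 2.38% in rABS and 2.36% in Parental.

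The 3' untranslated regions were searched for TGCATTC, 7 letters singled out by an earlier search of these data, and for GCATTCT and CTGCATT, which overlap it and were added after the data were seen. All 3 strings are read on the transcript strand only and can overlap each other. TGCATTC was in the longest annotated region of 0 of the 10 genes, and 13.3% of the 12471 tested genes with such a region hold it. Any of the 3 strings was in 2 of the 10, EIF5A2 with 3 matches in 4945 bases and AMD1 with 1 match in 2097 bases, and 29.1% of those genes hold one. Among the 1619 genes with regions of at least 4000 bases, 72.0% hold one of the strings and 27.7% have 3 or more matches. APEX1, the target of the hairpin, holds TGCATTC inside a run that also matches both other strings. Sites of EIF5A2 and APEX1 are shown because these had the farthest falls described here, and that of AMD1 because it also had a match. APEX1 holds a further CTGCATT at base 289, which is not shown. Each site runs 5′ to 3′ on the transcript strand with the matched letters in capitals and with their GRCh38 position.
EIF5A2, chr3:170892962-170892968, minus strand, base 392 of the region: gttgaactgctCTGCATTaattacagatt
EIF5A2, chr3:170888846-170888852, minus strand, base 4508: actataaataaGCATTCTtgtgcttgtta
AMD1, chr6:110894238-110894244, plus strand, base 622: attattggaccCTGCATTtatagtccttt
APEX1, chr14:20457590-20457596, plus strand, base 450: tcagagaaatcTGCATTCtatttctcatg
The matches are descriptions of sequence, and their part in any fall was not tested.

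DHPS, which starts the hypusine reaction, was lower in the exposed groups. It had 30.3, 28.5 and 26.8 CPM in shAPE1, 27.15, 32.0 and 29.6 in shCtrl, 27.3, 29.1 and 24.15 in rABS, and 38.82, 37.66 and 38.04 in Parental. All 9 libraries of exposed cells were below the 3 Parental libraries and overlapped among themselves. DHPS was 1.42-fold lower in rABS than in Parental (log2 -0.51 ± 0.10, interval -0.70 to -0.32). Its differences between shAPE1 and shCtrl (log2 -0.05, interval -0.24 to 0.14) and between shCtrl and rABS (log2 0.14, interval -0.05 to 0.34) were not called.

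DOHH, the hydroxylase that completes hypusine, had 5.83, 4.67 and 5.81 CPM in shAPE1, 5.92, 5.98 and 7.57 in shCtrl, 9.28, 9.37 and 7.56 in rABS, and 5.19, 4.58 and 3.71 in Parental. It was highest in rABS, where 1 library reached down to the top shCtrl library, and shAPE1 overlapped Parental. DOHH was 1.95-fold higher in rABS than in Parental (log2 0.96 ± 0.17, interval 0.61 to 1.31), the opposite direction to DHPS. It was 1.34-fold lower in shCtrl than in rABS (log2 -0.43 ± 0.16, interval -0.75 to -0.10), a call that was lost without shCtrl replicate 1 or 2 or rABS replicate 1 or 2. Its ranges in shAPE1 and shCtrl did not overlap, yet the difference of log2 -0.25 (interval -0.60 to 0.09) was not called.

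Promoters were searched for CACGTG, the palindromic letters that MYC with its partner MAX is known to bind, since MYC is a textbook activator of ODC1. RefSeq windows from 250 bases before to 50 after each listed start (GRCh38.p14) were found for all 10 genes. The letters were in a window of 4 of the 10 (ODC1, SRM, EIF5A2 and DOHH), against 8.78% of the 27305 genes in the table. Those 27305 genes were not limited to genes tested here, as the 10 are, so the shares cover unlike sets. Genes with several listed starts have several windows, and ODC1 holds the letters in only 1 of its windows. The stretches are shown 5′ to 3′ on the gene's strand, minus in all 4, with CACGTG in capitals.
ODC1, chr2:10447982-10448061, 29 bases before and 5 after the start: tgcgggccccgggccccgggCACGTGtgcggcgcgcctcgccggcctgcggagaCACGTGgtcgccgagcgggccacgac
SRM, chr1:11060192-11060237, 199 bases before the start: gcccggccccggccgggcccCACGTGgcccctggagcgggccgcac
EIF5A2, chr3:170908774-170908844, 187 and 162 bases before the start: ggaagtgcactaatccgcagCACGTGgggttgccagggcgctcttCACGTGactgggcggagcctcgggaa
DOHH, chr19:3500658-3500703, 9 bases before the start: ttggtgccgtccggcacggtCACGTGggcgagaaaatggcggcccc
A match says only that the letters are there, and binding was not measured.

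MYC and its partners were counted as a list of 12 genes, 11 of them measured. The 5 lists were chosen with earlier results of these data known, so counts and adjusted p-values of their genes are descriptions. Over all genes tested, 29.9% were called higher and 29.9% lower between rABS and Parental. The shares were 17.8% and 18.8% between shAPE1 and shCtrl, and 17.9% and 18.6% between shCtrl and rABS. Between rABS and Parental 3 were called higher and 5 lower (median log2 0.06). The largest fall was in MXD1, a MAX partner that opposes MYC, at 39.4 CPM in rABS and 205.8 in Parental (5.23-fold lower, edgeR adjusted p = 6.02e-21), and MYCL, MXD4 and MNT were also called lower. MYC itself, named here after its values were seen, averaged 651 ± 14.1 CPM in rABS and 518 ± 14.4 in Parental, 1.26-fold higher (edgeR adjusted p = 2.12e-05, n = 3 each). In shAPE1 against shCtrl, 5 were called higher and 1 lower (median 0.08). MYC averaged 1171 ± 32.7 CPM in shAPE1 and 744 ± 24.4 in shCtrl, 1.57-fold higher (adjusted p = 2.87e-10), while MXD1 was 1.79-fold lower (adjusted p = 1.07e-08) and MXD4, of the same opposing family, 2.61-fold higher (adjusted p = 4.98e-12). Between shCtrl and rABS 4 were called higher and 2 lower (median -0.01), with MYCL 2.24-fold higher (adjusted p = 2.01e-06) and MYC 1.14-fold higher (adjusted p = 0.013). Without shCtrl replicate 3, or without rABS replicate 3, 3 genes of this list were called in that comparison.

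Among 14 other genes of polyamine breakdown, antizyme control and transport, 11 were measured. Of all genes tested, 29.9% were called higher and 29.9% lower between rABS and Parental. Between shAPE1 and shCtrl the shares were 17.8% and 18.8%, and between shCtrl and rABS 17.9% and 18.6%. Between rABS and Parental 2 were called higher and 6 lower, with a median log2 change of -0.46. SMOX, spermine oxidase, averaged 18.3 ± 0.508 CPM in rABS and 41.3 ± 2.78 in Parental (2.26-fold lower, edgeR adjusted p = 8.01e-12). SAT2, a relative of SAT1 known mainly for acetylating thialysine, was 2.95-fold lower (adjusted p = 2.33e-08), and SLC3A2, the shared heavy chain of several amino acid transporters that has also been tied to polyamine export, averaged 194.5 ± 17.3 CPM in rABS and 406.8 ± 35.6 in Parental (2.09-fold lower, adjusted p = 1.5e-13). SLC12A8, a transporter gene, was 2.82-fold higher (adjusted p = 3.27e-12). The other genes called, named after their values were seen, were ATP13A2, higher at log2 0.56, and AZIN1, ATP13A3 and OAZ3, all lower. AZIN1 was at log2 -0.46 and ATP13A3 at -0.31, while OAZ3 was barely counted, at 0.537 CPM in rABS and 1.39 in Parental. In shAPE1 against shCtrl, 1 was called higher and 2 lower (median -0.15). ATP13A2, the lysosomal polyamine exporter, was 1.45-fold higher (adjusted p = 1.91e-06), and SMOX 1.39-fold lower (adjusted p = 0.000785), the opposite direction to SAT1. OAZ2, a second antizyme, averaged 34.3 CPM in shAPE1 and 41.4 in shCtrl, 1.21-fold lower (adjusted p = 0.0107). Between shCtrl and rABS 3 were called higher and 3 lower (median 0.13), with AZIN1, the inhibitor of antizyme, 1.43-fold higher (adjusted p = 2.38e-07) and ATP13A3, a polyamine uptake pump, 1.46-fold higher (adjusted p = 2.34e-06). ATP13A2 averaged 152 CPM in shCtrl and 200.2 in rABS (1.32-fold lower, adjusted p = 0.000167), against 220.1 in shAPE1. SLC12A8 was 1.45-fold lower in shCtrl than in rABS (adjusted p = 0.000319).

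Ornithine and arginine supply was followed in 11 genes, 10 of them measured. The background over all genes was 29.9% called higher and 29.9% lower between rABS and Parental. It was 17.8% and 18.8% between shAPE1 and shCtrl, and 17.9% and 18.6% between shCtrl and rABS. Between rABS and Parental 3 were called higher and 3 lower (median log2 -0.03). The cationic amino acid transporters diverged: SLC7A2 averaged 79.1 CPM in rABS and 27.6 in Parental (2.86-fold higher, adjusted p = 6.99e-17), and SLC7A1 251 CPM in rABS and 437 in Parental (1.74-fold lower, adjusted p = 1.24e-12). AGMAT, annotated as agmatinase, averaged 5.21 CPM in rABS and 1.27 in Parental, the largest change of this list (4.09-fold higher, adjusted p = 3.15e-08). ARG2, the mitochondrial arginase that releases ornithine, was 2.27-fold lower (adjusted p = 5.54e-11). Between shAPE1 and shCtrl 3 were called higher and 4 lower (median 0.08), and the transporters again diverged, with SLC7A2 1.56-fold higher (adjusted p = 2.79e-08) and SLC7A1 1.80-fold lower (adjusted p = 2.68e-12). ALDH18A1, which makes the precursor shared by proline and ornithine, was 1.31-fold lower in shAPE1 (adjusted p = 2.52e-05). Between shCtrl and rABS 3 were called higher and 4 lower (median -0.11), among them the argininosuccinate synthase gene ASS1, 1.63-fold higher (adjusted p = 4.42e-09). PYCR1 was 1.27-fold lower (adjusted p = 0.000524), AGMAT 1.92-fold lower (adjusted p = 0.00122) and ASL 1.34-fold lower (adjusted p = 0.00375). Without shCtrl replicate 3, or without rABS replicate 2, 4 genes of this list were called in that comparison.

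The methionine cycle and the salvage of methylthioadenosine, the by-product of SRM and SMS, were followed in 10 genes, 9 of them measured. All genes tested had shares of 29.9% called higher and 29.9% lower between rABS and Parental. Those shares were 17.8% and 18.8% between shAPE1 and shCtrl, and 17.9% and 18.6% between shCtrl and rABS. Between rABS and Parental 4 were called higher and 4 lower (median log2 0.15). MAT2A, which makes the S-adenosylmethionine that AMD1 uses, averaged 107 CPM in rABS and 36.9 in Parental (2.89-fold higher, adjusted p = 4.61e-17). MTAP, the phosphorylase that clears methylthioadenosine, was 1.32-fold lower (adjusted p = 3.39e-06), and AHCY, S-adenosylhomocysteine hydrolase, 1.37-fold lower (adjusted p = 2.45e-06). The other salvage genes went both ways: MRI1 and ADI1 were called higher, APIP was called lower and ENOPH1 was not called. Between shAPE1 and shCtrl 2 were called higher and 2 lower (median -0.15), led by AHCY at 424 CPM in shAPE1 and 294 in shCtrl (1.44-fold higher, adjusted p = 6.21e-07). Without shAPE1 replicate 2 or without shCtrl replicate 1 only 2 genes of this list were called in that comparison. Over all genes 4891 and 4779 were called in those fits, against 5784 with every library. Between shCtrl and rABS 2 were called higher and 3 lower (median -0.14), with the salvage gene ADI1 at 42.3 CPM in shCtrl and 75.7 in rABS (1.79-fold lower, adjusted p = 2.38e-09).

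Translation elongation and termination factors, the machinery eIF5A works with, were 18 genes, 17 of them measured. Across all genes tested, 29.9% were called higher and 29.9% lower between rABS and Parental. For shAPE1 against shCtrl the shares were 17.8% and 18.8%, and for shCtrl against rABS 17.9% and 18.6%. Between rABS and Parental 8 were called higher and 3 lower (median log2 0.52). The median is that of EEF1G, a gene at about 1 CPM whose exons lie almost wholly within another gene, and without it, a choice made after the data were seen, the median of the other 16 was 0.38. The most abundant fell: EEF1A1, which delivers aminoacyl-tRNA, averaged 10120 CPM in rABS and 19540 in Parental (1.93-fold lower, adjusted p = 6.98e-13), and EEF2, the translocase, 1914 CPM in rABS and 3186 in Parental (1.66-fold lower, adjusted p = 9.54e-11). EEF2K, the kinase that inhibits EEF2, was 1.91-fold higher (adjusted p = 3.63e-13), and DPH2, of the pathway that makes the diphthamide residue of EEF2, 3.18-fold higher (adjusted p = 1.22e-13). EIF5A thus ran opposite to EEF1A1 and EEF2 between rABS and Parental, but in the direction of the 8 list genes called higher. Those include EEF1A2, at 314.7 CPM in rABS and 202.5 in Parental, and ABCE1, at 178.3 and 81.35 CPM, both named after their values were seen. Between shAPE1 and shCtrl 3 were called higher and 4 lower (median -0.03), with EEF2 1.44-fold higher (adjusted p = 3.1e-07) and ETF1, the factor that reads stop codons, 1.36-fold lower (adjusted p = 1.63e-05). Between shCtrl and rABS 2 were called higher and 4 lower (median -0.02), with DPH2 1.42-fold lower, and 3 were called without shCtrl replicate 1. Over all genes 4954 were called in that last fit, against 5767 with every library.

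**Figure D4:**
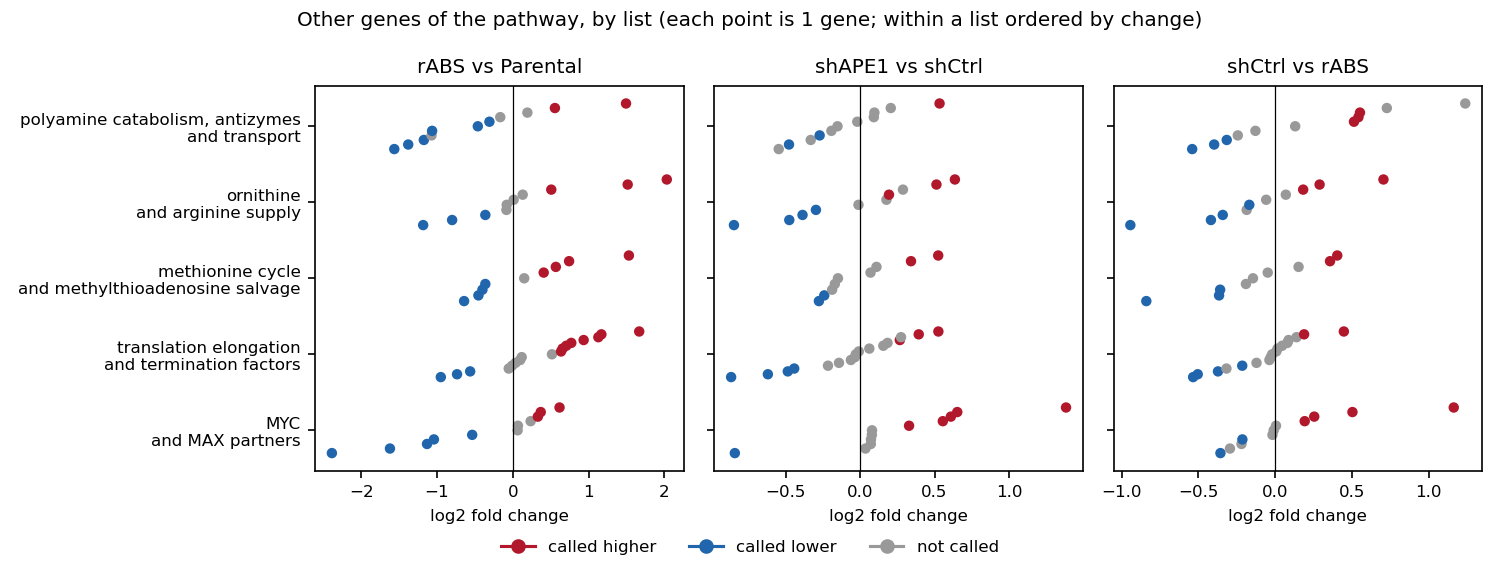
Log2 fold change (x axis, scale differs between panels) of each measured gene of the 5 lists in the 3 comparisons; each point is 1 gene, and red, blue and grey mark genes called higher, called lower and not called. Between rABS and Parental 6 of 11 genes of polyamine breakdown, antizyme control and transport are called lower and 8 of 17 translation factors higher. Over all genes tested, 29.9% are called lower and 29.9% higher in that comparison.

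Over the 12 libraries, the 5 genes whose log2 CPM followed that of EIF5A2 most closely, among 9069 with a mean of at least 10 CPM, were UBP1 (Pearson r = 0.983), SIMC1 (0.982), LRRC58 (0.978), TENT4A (0.9748) and NUCKS1 (0.970). For SRM they were SLC19A1 (r = 0.997), the reduced folate carrier gene, NAT10 (0.997), an RNA acetyltransferase gene, RRP12 (0.996), a ribosome assembly gene, PLCG1 (0.996) and MFSD13A (0.995). The 12 libraries fall into 4 groups, so such values mostly state a shared order of groups. By rank correlation 1 of the 5 genes stayed among the nearest 5 of EIF5A2 and 0 of the 5 among those of SRM.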

How the data were processed

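Polyadenylated RNA of 12 libraries was sequenced. The authors deposited a table of unnormalized counts, 1 row per Ensembl gene. Per the submitters' processing notes, the tools were Trimmomatic 0.36, STAR 2.5.2b and featureCounts (Subread 1.5.2) with GRCh38; the annotation release is not given in the sources used here. Exon lengths, positions and untranslated regions come from GENCODE 29. The sequence of 1 EIF5A2 site is not reported here.

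Genes were filtered with filterByExpr (minimum count 10, minimum total 15), libraries scaled with TMM, and edgeR 4.0.16 (R 4.3.3) fitted to all 12 with a term per group and robust quasi-likelihood. Log2 CPM used a prior count of 2. The fit was also run on simulated counts with the same spread for every gene and few changed genes. That setting is simpler than these data, so it does not check the calls made here.

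The 10 genes, the lists and the 7-mer were chosen with earlier results of these data known. List genes were named mainly from the 4 called genes with the smallest adjusted p at 1 CPM or more per list and comparison. Not all 4 are given each time. Adjusted p-values are edgeR's, Benjamini-Hochberg over all genes. Those of list genes describe the genes named and do not test the lists.

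Replicate numbers were not used to pair the libraries in the main fit. Deviations of same-numbered libraries from their group means correlated at -0.167 to 0.067 over 9 pairs, which cannot exclude a weak pairing. Alternatives were RLE and upper-quartile scaling, DESeq2 1.42.0, limma-voom (limma 3.58.1), other filters, a replicate block, a fit of the 6 libraries of a comparison, rABS as the control of shAPE1, and leaving out each library. No protein sequence or protein level was used here.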

Additional observations from a re-analysis of the deposited data

How the results depend on the processing

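Of 430 fold changes of the 10 genes recomputed under the alternatives, 411 kept their side of the threshold with no change of direction in a called value. These 411 include values close to 0 that changed sign without being called, such as SMS between shCtrl and rABS (log2 0.009, and -0.004 with RLE scaling). Of the rest, 16 kept their direction and lost the call, 1 gained a call and 2 reversed where the main or the alternative fit made a call. Both reversals came with rABS in place of shCtrl as the control: EIF5A was at log2 -0.31 and SRM at -0.18. With that control 5 genes of polyamine breakdown and transport were called (3 against shCtrl), 7 of the methionine cycle (4) and 11 translation factors (7). The share of all genes called with that control is not given here, so nothing about the lists is read from these counts. The EIF5A2 share without length scaling was 0.812%, 4.81%, 2.38% and 2.36% in shAPE1, shCtrl, rABS and Parental. Leaving out 1 library at a time, the genes called between shCtrl and rABS ranged from 3 to 6 for MYC and its partners (3 without shCtrl replicate 3 or rABS replicate 3), from 4 to 7 for ornithine and arginine supply (4 without shCtrl replicate 3 or rABS replicate 2) and from 3 to 6 for translation factors. Between shAPE1 and shCtrl those of the methionine cycle ranged from 2 to 5. Over all genes 4891 were called in that comparison without shAPE1 replicate 2 and 4779 without shCtrl replicate 1, against 5784 with every library. Between shCtrl and rABS 4954 were called without shCtrl replicate 1, against 5767. The OAZ1 call between shAPE1 and shCtrl was lost with RLE or upper-quartile scaling, DESeq2, no filter or the replicate block, and the DOHH call between shCtrl and rABS with no filter. With a replicate block, 9266, 5485 and 5457 genes were called, against 9454, 5784 and 5767 without it (rABS against Parental, shAPE1 against shCtrl, shCtrl against rABS). The lowest levels, EIF5A2 in shAPE1 and DOHH, have the widest intervals.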

Other observations

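EEF1G, a subunit of the elongation factor that recharges EEF1A1, was listed at only 1.35 ± 0.203 CPM in shAPE1, 1.19 ± 0.258 in shCtrl, 1.16 ± 0.343 in rABS and 0.794 ± 0.541 in Parental (SD, n = 3 each), although it is among the abundant messages of most cells. In GENCODE 29, 99.9% of its exon bases are also exons of ENSG00000255508 on the same strand, which had 17 to 78 counts per library. Reads there cannot be assigned to EEF1G alone. It was not called in any of the 3 comparisons.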
